A study of Mus musculus with 11 samples.

Results

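Voltage-gated potassium channels other than the KCNQ family were followed through 36 genes: 6 for Kv1 pore subunits, 3 for Kv beta subunits, 8 for Kv2 and silent modifier subunits, 3 for Kv3 and 3 for Kv4 pore subunits, 6 for auxiliary partners of Kv4 and 7 for the ether-a-go-go family. The genes were taken by name from a given list, whose rule uses gene families and no measured value but which was drawn up with earlier results of these data known. They were matched by Ensembl identifier to the 48709 genes listed in the count tables, where all 36 were found. The list is not complete for these families, and further family members were not analysed here. The samples were primary hippocampal neurons, cells taken from the hippocampus of embryonic day 17 (E17) embryos of CD1 mice and grown in a dish, which received lipid nanoparticles (LNPs) on day 10 in vitro and were lysed on day 12 in vitro, 48 hours later. The control group (6 samples) received LNPs packed with a negative control RNA, and the mimic group (5 samples) received LNPs packed with a synthetic mimic of miR-181a-5p. Per the study's methods, the protein ApoE4 was added with the LNPs in both groups and the hippocampi of several embryos were pooled before plating. No source used here says that the samples of a group came from separate preparations, so the p-values measure the spread between these samples, which may be technical. Poly(A) RNA was sequenced, and the question put to these genes was whether their mRNA levels differ between mimic and control.

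Voltage-gated potassium channels open when the membrane depolarizes and let potassium leave the cell, which ends action potentials and sets how readily and how fast a neuron fires. A channel is built from 4 pore-forming alpha subunits. Kv1 channels sit largely on axons and hold back firing, Kv2 channels give the delayed rectifier of the cell body, Kv3 channels allow fast repetitive firing, and Kv4 channels carry the A-type current of dendrites. Silent modifier subunits form no channel alone and change the gating of Kv2 channels, and Kv beta subunits, KChIP proteins (genes Kcnip1 to Kcnip4) and DPP proteins (Dpp6 and Dpp10) are auxiliary subunits that set surface expression and inactivation.

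A microRNA pairs through its seed, bases 2 to 8 from its 5′ end, with matching bases in messenger RNAs, most often in the 3′ untranslated region (3′ UTR). Both oligonucleotides are shown here 5′ to 3′ with the seed in capitals, since the seed decides which channel genes carry a match. The mimic was identical over its 23 bases to the mature mouse miR-181a-5p of RefSeq, which is encoded at chr1:137966468-137966490 (Mir181a-1, plus strand, GRCm38.p6) and at chr2:38852741-38852763 (Mir181a-2, plus strand, GRCm38.p6).
miR-181a-5p mimic: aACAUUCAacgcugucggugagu
negative control: uCACCGGGuguaaaucagcuug

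The 7-base DNA match to the mimic's seed is TGAATGT, and an 8-base match adds an A at its 3′ end, TGAATGTA. The windows below show the matches of the 5 channel genes that the study lists as predicted targets, together with the single match of a gene that fell, Kcnip2. Each window holds 22 bases of the mRNA strand in GRCm38, and the capitals mark the match. Of the 3 matches in Dpp10, the 8-base ones are shown.
Dpp10, chr1:123324080-123324101, minus strand: ttacgttacctccaTGAATGTA
Dpp10, chr1:123323028-123323049, minus strand: agtgtaagctgctgTGAATGTA
Kcnh1, chr1:192509722-192509743, plus strand: cacccccaccccaaTGAATGTA
Kcna4, chr2:107297668-107297689, plus strand: gagacttcatactaTGAATGTt
Kcnc2, chr10:112463948-112463969, plus strand: ctgtattggtgttcTGAATGTt
Kcnh7, chr2:62693477-62693498, minus strand: tacagcaagctattTGAATGTt
Kcnip2, chr19:45791845-45791866, minus strand: attccatttcaacaTGAATGTg

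Total counts per sample ran from 17287168 to 48091231, and the deepest sample, control replicate 1, stood apart from the next at 28934923. Mitochondrial genes took 3.03% to 3.48% of the counts. The neuronal label was met by its markers: all 10 neuronal marker genes were detected, with a summed level of 8160 to 8320 CPM (counts scaled to a common, TMM-adjusted library size) in the control samples and 8020 to 8210 in the mimic samples. The 8 astrocyte markers summed to 4850 to 5300 CPM in control and 4450 to 4770 in mimic, so the cultures also held glial RNA. The mimic RNA itself is not read by poly(A) libraries, so its uptake could not be checked in these data.

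All 36 channel genes were detected at levels that allowed a test, and 7 of them were lower in the mimic samples and 0 were higher. A gene was called when its Benjamini-Hochberg adjusted p in edgeR's quasi-likelihood test, taken over all 17365 tested genes, was under 0.05. The 7 genes were Kcna1 and Kcna2 (Kv1 pore subunits), Kcng1 and Kcnv1 (silent modifiers), Kcnip2 and Kcnip3 (KChIP partners of Kv4) and Kcnh3 (an ether-a-go-go pore subunit). Their fold changes lay between 0.84 and 0.897 of control. The share called was 19.4%, against 2.85% of all tested genes called in either direction, 1.77% called lower and 1.08% called higher. Calls were made among the more abundant genes alone: 27 of the 36 genes had a mean of at least 10 CPM and all 7 calls were among them (25.9%), where 3.97% of all genes of that abundance were called, 2.89% lower. The 9 channel genes under 10 CPM had 0 calls in edgeR and an unadjusted p under 0.05 in 3 of them, 2 lower and 1 higher.

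Beyond the calls, 26 of the 36 estimates lay below 0, where 50.1% of all tested genes did, and the median log2 fold change (mimic minus control) was -0.068, where that of all tested genes was -0.00015. The unadjusted p was under 0.05 for 14 genes that were lower and 1 that was higher, Kcns1, while 8.41% and 7.3% of all tested genes were in these classes. The groups did not overlap for 4 of the 36 genes, all lower in mimic (Kcna1, Kcna2, Kcnh3 and Kcnd3), where 2.89% of all tested genes did not overlap in either direction and 1.73% did not with mimic lower.

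**Figure D1:**
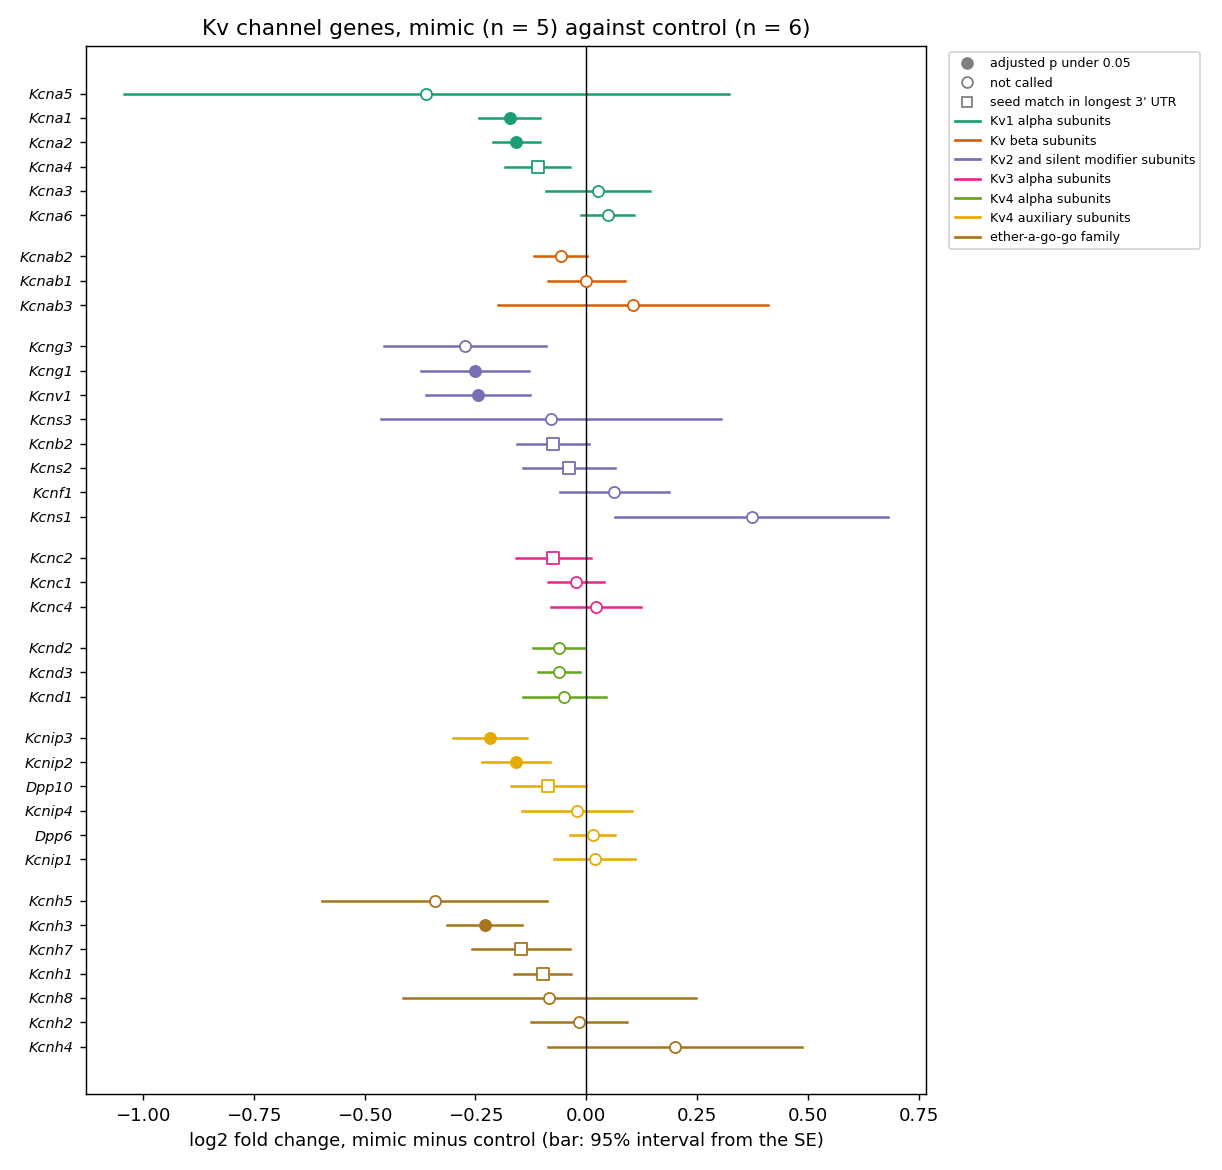
Log2 fold change of each of the 36 channel genes, mimic (n = 5) minus control (n = 6), on the x axis, with 95% intervals from the standard error as bars, ordered within subfamily by their estimate. Filled symbols are the 7 genes with an adjusted p under 0.05, all left of 0, and squares are the 7 genes with a seed match in the longest 3′ UTR, none of which is filled.

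**Figure D2:**
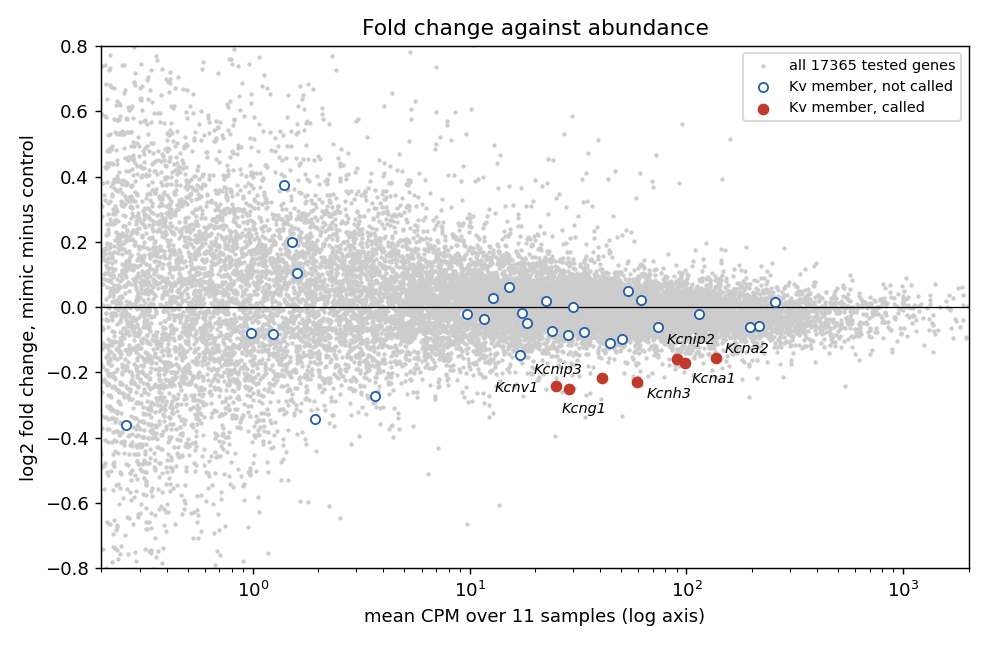
Log2 fold change (mimic minus control, y axis) against mean CPM over the 11 samples (x axis, log scale) for all 17365 tested genes in grey and the 36 channel genes in color. The 7 called genes, from Kcnv1 at the left to Kcna2 at the right, lie below the bulk of genes of like abundance, and 223 genes lie outside the axis limits.

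Levels in the control cultures are given per gene length as RPKM (CPM divided by the kilobases of a gene's merged exons), the scale on which genes can be set beside each other. By this length the highest were the beta subunit gene Kcnab2 at 39.3 ± 1.27 RPKM (SD, n = 6) and Kcnip2 at 27.4 ± 1.15. Kcna1 (21.7 ± 1.11), Kcnd3 (20.8 ± 0.461) and Dpp6 (20.6 ± 0.401) followed, and their ranges over samples overlapped. Then came Kcnc4 at 16.7 ± 1.32 RPKM and Kcnd2 at 14.7 ± 0.434, whose ranges met at 15.1 to 15.2. Kcnip3 (12.2 ± 0.663), Kcnc1 (12.1 ± 0.56), Kcna2 (12.0 ± 0.349) and Kcnh3 (11 ± 0.71) also overlapped in range. In all, 11 of the 36 genes reached 10 RPKM, and 5 of the 7 genes that fell were among these 11. The other 2, Kcng1 and Kcnv1, were the 2 highest of their own subfamily at 6.85 ± 0.525 and 5.84 ± 0.537 RPKM. The lowest gene was Kcna5 at 0.102 ± 0.0319 RPKM. The order depends on the length used. With the longest transcript's length in place of merged exons, Dpp6 (53.9 RPKM) stood beside Kcnab2 (55.9) and above Kcnip2 (30.5). Kcnh3 (17.2) then stood above Kcnc4 (16.7), and 11 genes again reached 10 RPKM.

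**Figure D3:**
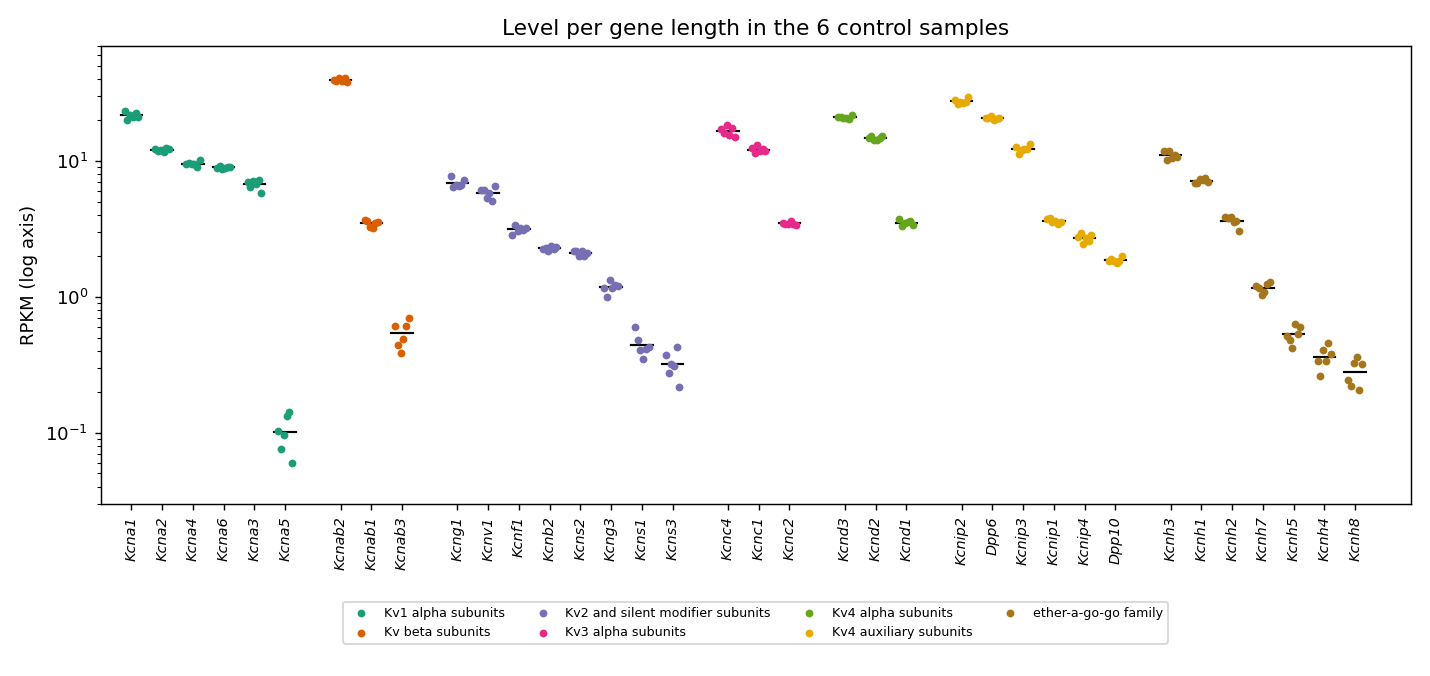
RPKM (log axis) of the 36 channel genes in each of the 6 control samples (points) with the mean (line), colored by subfamily and ordered within it. Kcnab2 stands highest at 39.3 and Kcna5 lowest at 0.102.

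The Kv1 pore subunits fell in part: 2 of 6 were called, both lower. Kcna1, whose Kv1.1 protein is a main axonal brake on firing, lies at chr6:126640397-126646384 (GRCm38, minus strand). Its control values ran from 96.2 CPM through a median of 103 to 111, and the mimic samples read 94.2, 93.2, 96.0, 90.9 and 85.8. Every mimic sample was below every control sample, though by a margin of only a fraction of a CPM at the nearest. The mean fell from 104 ± 5.3 CPM (n = 6) to 92.0 ± 3.94 (n = 5), a change of -0.17 on the log2 scale (SE 0.035, edgeR adjusted p = 0.00664).

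Kcna2, which encodes Kv1.2, the usual partner of Kv1.1 in axonal channels, lies at chr3:107101146-107115005 (plus strand). Control values ran from 137 CPM through 144 to 149, and the mimic samples read 127, 131, 131, 126 and 126. The groups were clear of each other, and the spread within each was small. From control to mimic, Kcna2 fell from 143 ± 4.15 to 128 ± 2.41 CPM (log2 fold change -0.16, SE 0.0267, edgeR adjusted p = 0.00155), the lowest adjusted p of the 36 genes.

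Kcna4, which encodes the fast inactivating Kv1.4 of axons, is on the study's list of predicted targets and carries 1 match in a 3′ UTR of 1615 bases. Control values ran from 43.5 CPM through 45.9 to 48.9, and the mimic samples read 43.8, 44.3, 45.0, 39.5 and 41.3. Only mimic replicates 4 and 5 lay below the control range, and the gene was not called (log2 fold change -0.11, SE 0.0377, edgeR adjusted p = 0.123). Kcna6 (Kv1.6) read 53.1 ± 0.931 CPM in control and 54.8 ± 1.63 in mimic (log2 fold change 0.048, edgeR adjusted p = 0.50). Kcna3 (Kv1.3) read 12.7 ± 1.06 and 13.0 ± 0.726 CPM (edgeR adjusted p = 0.90), and its estimate changed sign between settings. Kcna5, at 0.291 and 0.219 CPM with as few as 1 count in a sample, could not show a change of this size, since its 95% interval ran from -1.04 to 0.32.

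Summed over the 6 genes, the Kv1 level went from 59.0 ± 1.43 RPKM in control to 55.0 ± 1.4 in mimic. Kcna1 made up 36.7% of the control sum and 35% of the mimic sum. Kcna6 made up 14.5% to 16.0% in the control samples and 16.3% to 17.1% in the mimic samples, so its share did not overlap between groups. The CPM of Kcna6 did overlap (51.9 to 54.4 in control, 52.4 to 56.7 in mimic), and the sum includes Kcna1 and Kcna2, which were picked as lower. These shares are descriptions of the sum and carry no test.

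None of the 3 Kv beta genes, whose proteins bind inside Kv1 channels, was called in edgeR, and none had an unadjusted p under 0.05. Kcnab2 read 211 to 228 CPM in control, with a median of 218, and 217, 204, 221, 217 and 194 in mimic. Its range overlapped and its log2 fold change was -0.058 (SE 0.0308, 95% interval -0.12 to 0.0028, edgeR adjusted p = 0.383). Kcnab2 supplied 90.8% of the summed beta subunit RPKM in control and 90.3% in mimic. Kcnab1 had the estimate nearest to 0 of all 36 genes (29.8 ± 1.61 and 29.9 ± 1.48 CPM), and Kcnab3 read 1.54 and 1.68 CPM.

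Of the 8 genes of the Kv2 and silent modifier families, 2 were called, both lower and both silent modifiers. Kcng1 (Kv6.1) lies at chr2:168260117-168281736 (minus strand). Its control samples lay between 28.9 and 35 CPM with a median of 29.8, and the mimic samples read 25.4, 26, 30.8, 25.4 and 23.5. Mimic replicate 3 lay inside the control range and the other 4 lay below it. The mean fell from 30.9 ± 2.37 to 26.2 ± 2.72 CPM (log2 fold change -0.25, SE 0.062, edgeR adjusted p = 0.0325), the largest fall among the called channel genes.

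Kcnv1 (Kv8.1) lies at chr15:45106284-45114920 (minus strand). It read 23.4 CPM at the lowest, 27.4 at the median and 30 at the highest in control, and the mimic samples read 21.8, 21.5, 25.7, 21.3 and 24.1. Mimic replicates 3 and 5 lay inside the control range. Kcnv1 fell from 26.8 ± 2.46 to 22.9 ± 1.95 CPM (log2 fold change -0.24, SE 0.0599, edgeR adjusted p = 0.0285). Kcng1 was called in 12 and Kcnv1 in 9 of 18 alternative settings, with the adjusted p reaching 0.102 (without mimic replicate 4) and 0.117 (without mimic replicate 2) when 1 sample was left out. Kcng1 lost its call without control replicate 1 or 6 and without mimic replicate 1, 2, 4 or 5, and Kcnv1 without control replicate 1, 2, 4 or 6 and without mimic replicate 1, 2 or 4. Kcnv1 also lost its call with the replicate number as a block (edgeR adjusted p = 0.156) and in limma (adjusted p = 0.0572).

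The other silent modifiers and Kcnb2 were not called. Kcnb2, the Kv2 pore gene on the list, carries 2 seed matches in a 3′ UTR of 12121 bases and read 34.3 ± 0.867 CPM in control and 32.6 ± 2.26 in mimic (log2 fold change -0.075, edgeR adjusted p = 0.392). Kcns2, with 2 matches in a 3′ UTR of 3481 bases, read 11.8 ± 0.471 and 11.5 ± 0.334 CPM (log2 fold change -0.038, edgeR adjusted p = 0.819). Kcng3 (3.95 and 3.26 CPM) and Kcns1 (1.2 and 1.6 CPM) had estimates in opposite directions, -0.27 and 0.37 on the log2 scale, and neither was called (edgeR adjusted p = 0.119 and 0.227). Kcnf1 (15.0 and 15.5 CPM) and Kcns3 (1.01 and 0.938 CPM) had adjusted p-values of 0.721 and 0.909 in edgeR.

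None of the 3 Kv3 genes was called in edgeR, and none had an unadjusted p under 0.05. Kcnc4 (Kv3.4), the highest of them per length, read 55.3 to 67.8 CPM in control, with a median of 60.9, and 67.9, 60.4, 62.7, 62.2 and 56.8 in mimic, so the ranges nearly coincided (log2 fold change 0.021, 95% interval -0.08 to 0.12). Kcnc1 (Kv3.1), typical of fast-spiking interneurons, read 114 ± 5.29 and 113 ± 4.17 CPM (log2 fold change -0.022, 95% interval -0.086 to 0.041). Kcnc2 (Kv3.2) is a predicted target with 1 match in a 3′ UTR of 3953 bases. Its control values ran from 24.1 CPM through 24.5 to 25.7, and the mimic samples read 23.3, 24.8, 21.5, 22.9 and 24.5. Mimic replicates 1, 3 and 4 were below the control range and the other 2 were inside it (log2 fold change -0.074, SE 0.043, edgeR adjusted p = 0.438). The inhibitory neuron markers, 10 genes with 0 called in edgeR, summed to 1110 to 1200 CPM in control and 1090 to 1180 in mimic.

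The Kv4 pore genes, which carry the dendritic A-type current, had estimates below 0 in 3 of 3 cases, and 0 were called in edgeR, while 2 had an unadjusted p under 0.05. Kcnd3 (Kv4.3) read 194 to 207 CPM in control, with a median of 199, and 193, 192, 191, 192 and 188 in mimic. Its groups did not overlap, yet the difference was small, from 200 ± 4.42 to 191 ± 1.78 CPM, and the adjusted p missed the threshold (log2 fold change -0.061, SE 0.024, edgeR adjusted p = 0.19). Kcnd2 (Kv4.2) read 75.7 ± 2.24 and 72.5 ± 1.48 CPM (log2 fold change -0.062, edgeR adjusted p = 0.299), and Kcnd1 read 18.6 ± 0.845 and 18 ± 0.884 CPM (edgeR adjusted p = 0.715). Kcnd3 made up 53.3% of the summed Kv4 RPKM in both groups.

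Among the 6 partners of Kv4 channels, 2 were called, both lower and both KChIP genes. Kcnip2 (KChIP2) lies at chr19:45791839-45816061 (minus strand). Control values ran from 90.6 CPM through 93.7 to 102, and the mimic samples read 85.5, 79.9, 93.5, 88.9 and 79.0. Mimic replicate 3 lay inside the control range and the other 4 lay below it. The mean fell from 95.1 ± 3.99 to 85.4 ± 6.11 CPM (log2 fold change -0.16, SE 0.0391, edgeR adjusted p = 0.026). This call was found in 13 of 18 alternative settings, with an edgeR adjusted p of up to 0.0987 (without mimic replicate 2). It was lost also without control replicate 1 or 6 or mimic replicate 5, and with the replicate number as a block (edgeR adjusted p = 0.0548).

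Kcnip3 (KChIP3, also known as DREAM and calsenilin, a calcium-binding protein that also acts on transcription) lies at chr2:127456498-127522094 (minus strand). In the control samples it ran from 39.8 CPM through a median of 43.3 to 46.8, and the mimic samples read 37.2, 37.5, 40, 38.5 and 33.8. Mimic replicate 3 reached just into the control range. Kcnip3 fell from 43.4 ± 2.35 to 37.4 ± 2.31 CPM (log2 fold change -0.22, SE 0.0424, edgeR adjusted p = 0.00491). Kcnip2 and Kcnip3 supplied 59.6% and 26.7% of the summed KChIP RPKM in control, and that sum went from 45.9 ± 1.79 to 41.4 ± 2.32 RPKM.

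The other KChIP genes and both DPP genes were not called. Kcnip1 read 22.3 ± 0.865 CPM in control and 22.7 ± 1.48 in mimic (log2 fold change 0.019, edgeR adjusted p = 0.909), and Kcnip4 read 9.78 and 9.68 CPM (edgeR adjusted p = 0.925). Dpp6, the highest channel gene in CPM and 91.8% of the summed DPP level per length, read 254 ± 4.95 and 257 ± 8.63 CPM, with a 95% interval of the log2 fold change from -0.036 to 0.064 that does not reach the falls of the KChIP genes. Dpp10, the predicted target with 3 matches in a 3′ UTR of 12778 bases, read 27.8 to 31.2 CPM in control, with a median of 28.9, and 28.0, 27.4, 24.6, 28.3 and 29.0 in mimic. Only mimic replicates 2 and 3 lay below the control range (log2 fold change -0.086, SE 0.0432, edgeR adjusted p = 0.339).

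In the ether-a-go-go family 1 of 7 genes was called, lower, and 6 of 7 estimates lay below 0. Kcnh3 (Kv12.2), a forebrain channel active near the resting potential, lies at chr15:99224861-99242817 (plus strand). The control samples lay between 58.4 and 68.4 CPM with a median of 62.7, and the mimic samples read 56.4, 53.3, 56.9, 55.6 and 49.4. All 5 mimic samples were below all 6 control samples. Kcnh3 fell from 63.5 ± 4.09 to 54.3 ± 3.09 CPM (log2 fold change -0.23, SE 0.0431, edgeR adjusted p = 0.00491). The opposite-strand gene Mcrs1 overlaps it, and whether reads were counted by strand is not stated. Mcrs1 read 24.0 CPM in control and 24.9 in mimic (log2 fold change 0.054, edgeR adjusted p = 0.59).

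Kcnh1 (Kv10.1), a predicted target with an 8-base match, read 50.3 to 54.3 CPM in control, with a median of 51.9, and 50.4, 49.0, 49.2, 48.1 and 46.6 in mimic. Mimic replicate 1 alone lay inside the control range (log2 fold change -0.098, SE 0.0328, edgeR adjusted p = 0.113). Kcnh7 (Kv11.3), a predicted target with 1 match in a 3′ UTR of 9532 bases, read 15.7 to 19.5 CPM in control, with a median of 18, and 17.4, 16.2, 16.0, 14.7 and 16.1 in mimic. Only mimic replicate 4 lay below the control range (log2 fold change -0.15, SE 0.0566, edgeR adjusted p = 0.182). Kcnh2, the ERG channel gene, read 17.5 ± 1.49 and 17.4 ± 0.666 CPM (edgeR adjusted p = 0.934). The low genes Kcnh5 (2.14 and 1.70 CPM), Kcnh4 (1.43 and 1.6 CPM) and Kcnh8 (1.27 and 1.19 CPM) had adjusted p-values of 0.17, 0.58 and 0.885 in edgeR.

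**Figure D4:**
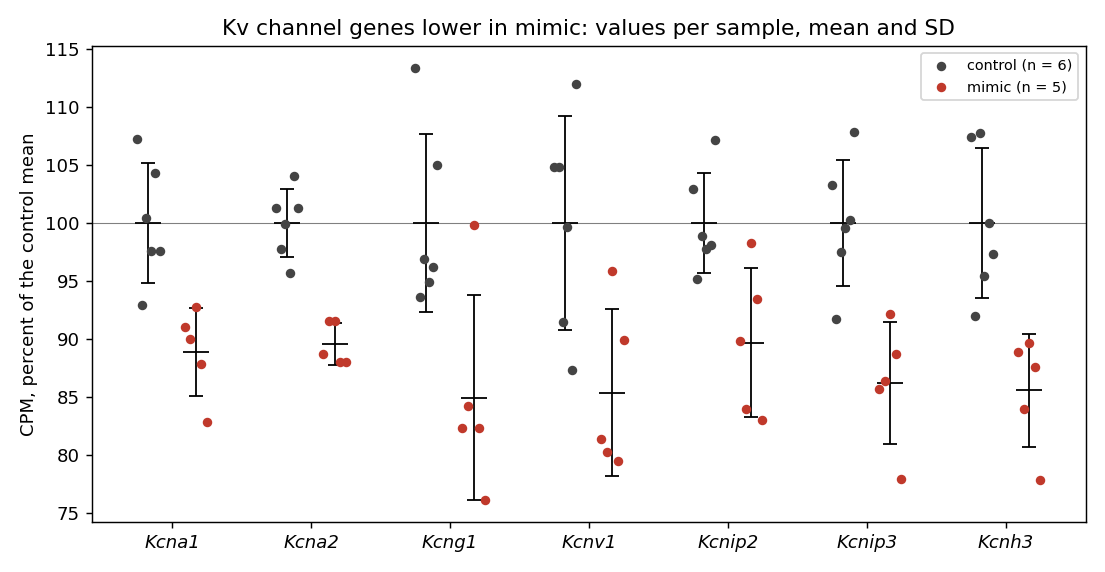
CPM of the 7 called channel genes in each sample as a percent of the gene's control mean (y axis), control (n = 6) in grey and mimic (n = 5) in red, with the mean and SD. The groups are clear of each other for Kcna1, Kcna2 and Kcnh3, and mimic replicate 3 is the mimic sample nearest to control in each gene, level with mimic replicate 2 for Kcna2.

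The samples were not alike over the 7 genes that fell. Mimic replicate 5 was the lowest of the mimic samples in 6 of the 7 genes, level with mimic replicate 4 for Kcna2, and its median over the 7 genes was 82.5% of the control mean. Mimic replicate 3 was the highest of the mimic samples in 7 of 7, with a median of 92.3%. Among the control samples, replicate 2 was the lowest in 5 of the 7, with a median of 93.5%, and replicates 1 and 6 stood at 105%. These medians describe genes picked by their call and carry no test.

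Kcna1, Kcna2, Kcnip3 and Kcnh3 were called in each of the 18 alternative settings, which include leaving out each sample in turn. Kcng1, Kcnip2 and Kcnv1 lost the call in 6, 5 and 9 of the 18. Both control replicates 1 and 6 mattered for these: without either, 4 of the 36 genes were called, the same number as without mimic replicate 2. Fewer of all tested genes were called in these fits too: 1.25% without control replicate 1, 1.99% without control replicate 6 and 1.35% without mimic replicate 2. The reported fit called 2.85%. Without mimic replicates 1, 4 or 5, 5 genes were called, and 6 without control replicates 2 or 4. None of the other 29 genes was called in any of these settings.

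**Figure D5:**
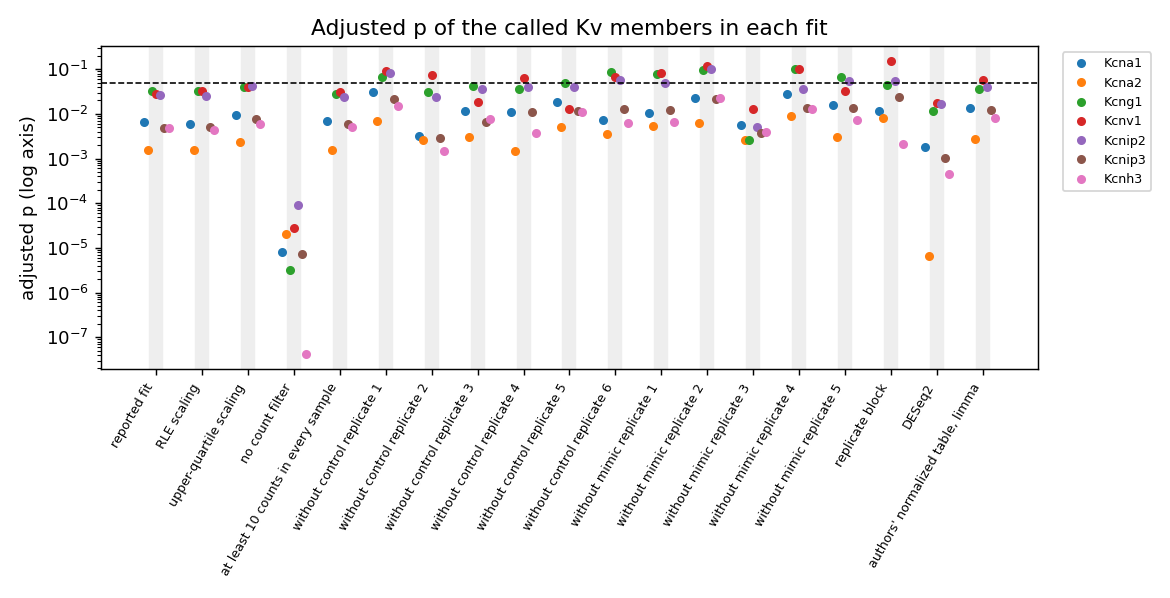
Adjusted p (y axis, log scale) of the 7 called channel genes in the reported fit and in each of 18 alternative settings, with the threshold of 0.05 dashed. Kcna1, Kcna2, Kcnip3 and Kcnh3 stay below the line throughout, whereas points of Kcng1, Kcnv1 and Kcnip2 lie above it in several settings.

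In the longest annotated 3′ UTR, none of the 7 genes that fell carried a match to the mimic's seed. A 7-base match in the longest annotated 3′ UTR was found in 7 of the 36 genes (Kcna4, Kcnb2, Kcns2, Kcnc2, Dpp10, Kcnh1 and Kcnh7), with 11 matches in all. This is 19.4% of the genes, close to the 18.5% of the 14489 tested genes with an annotated 3′ UTR, whereas 40.8% of the 294 genes called lower among these carried one. These sets differ in 3′ UTR length, with a median of 1765.5 bases in the 36 genes, 1201 in the tested genes and 2692 in those called lower, so the shares are not matched for length. The 7 genes with a match had estimates below 0 in 7 of 7, a median log2 fold change of -0.086 and 0 calls in edgeR, although 3 had an unadjusted p under 0.05, and DESeq2 and limma called none of them either. The 29 genes without a match had a median of -0.058 and 7 calls. The 8-base match was found in Dpp10 and Kcnh1, and in 6.0% of the tested genes with a 3′ UTR. The median 3′ UTR was 4868 bases long in the genes with a match and 1471 bases in those without, and a longer 3′ UTR has more room for a match.

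Taking any annotated 3′ UTR in place of the longest added a match in 1 gene. The match of Kcnip2 shown above lies in a 3′ UTR of 96 bases that belongs to 1 of 5 annotated transcripts. The matches of Kcnh7, Kcnb2 and Kcnc2 also lie in only some of their annotated transcripts with a 3′ UTR (1 of 3, 1 of 2 and 3 of 4). The counts per gene do not tell transcripts apart. Searched over whole coding transcripts, 9 of the 36 genes held the 7 bases, where 30.5% of 14556 tested genes did, and Kcnip2 was again the only called gene among them. A match is a description of the sequence and not a shown site. On the study's list of predicted miR-181a-5p targets stood 5 of the 36 genes (Kcna4, Kcnc2, Dpp10, Kcnh1 and Kcnh7). All 5 had estimates below 0, with a median of -0.098, and 0 were called in edgeR, DESeq2 or limma, with edgeR adjusted p-values from 0.113 to 0.438 and an unadjusted p under 0.05 in 3. Of the 31 genes off the list, 7 were called.

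Other potassium channels and partner proteins of Kv channels were set beside these genes through a list of 42 genes, of which 3 were called lower and 1 higher (9.52%), with a median log2 fold change of -0.016. Among 9 inward rectifier genes, which hold the resting potential, 2 were called lower. Kcnj10 (Kir4.1), which is chiefly an astrocyte channel, fell from 210.0 ± 10.9 to 174 ± 12.2 CPM (log2 fold change -0.28, SE 0.0427, edgeR adjusted p = 0.00237), beside an astrocyte marker sum that was lower as well. Kcnj3 (GIRK1) fell from 76.2 ± 4.16 to 69.1 ± 3.75 CPM (log2 fold change -0.14, edgeR adjusted p = 0.0352), a call lost in 11 of 18 settings. Among 13 anchoring and trafficking partners, Lgi1, a secreted protein found in the Kv1 complex, fell from 92.9 ± 3.47 to 84.1 ± 2.52 CPM (log2 fold change -0.14, edgeR adjusted p = 0.00956). That call was lost in 1 of 18 settings, the fit with the replicate number as a block (edgeR adjusted p = 0.055). Flna, the actin cross-linker that binds Kv4.2, rose from 339 ± 12.4 to 368 ± 12.7 CPM (log2 fold change 0.12, edgeR adjusted p = 0.019), and was not called without control replicate 1 or mimic replicate 4 (edgeR adjusted p up to 0.0769). None of the 8 calcium- and sodium-activated channels, 8 two-pore channels and 4 HCN channels was called in edgeR, while 4 had an unadjusted p under 0.05.

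Markers of several cell types also differed between the groups. The astrocyte sum did not overlap between groups (4850 to 5300 against 4450 to 4770 CPM), with 1 of 8 genes called, Slc1a2, lower. The excitatory neuron markers summed to 1640 to 1740 CPM in control and 1550 to 1640 in mimic, with 2 of 8 genes called lower, Slc17a7 and Slc17a6, and Prox1 called higher. Of the neuronal markers 1 of 10 was called, Nefm, lower. The fibroblast and vascular markers were higher in sum in mimic (255 to 347 CPM) than in control (166 to 246), with 7 of 8 genes tested and Rgs5 alone called, lower. The markers of dividing cells also summed higher in mimic, 86.8 to 95.7 against 73.2 to 80.8 CPM, with 3 of 8 called higher, Top2a, Cdk1 and Bub1. The oligodendrocyte and microglial markers overlapped between groups (315 to 381 against 287 to 331 CPM, and 14.1 to 14.9 against 13.5 to 14.8), with 0 called in edgeR. No marker of these lists was at 0 across all 11 samples. The part of these markers in the lower channel genes was not tested, and in RNA from whole cultures fewer cells of a type and less RNA per cell cannot be told apart.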

How the data were processed

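The authors made poly(A) libraries (TruSeq v2, 50-base single-end reads), checked reads with FastQC 0.11.5, aligned them with STAR 2.5.2b to mm10 and deposited, per sample, gene counts from featureCounts (Subread 1.5.1). The annotation release and strand setting are not given in the sources used here. The authors also deposited a normalized signal table of 16921 genes, each value being the count divided by 1 size factor per sample. Of 48709 genes listed, 48349 matched GENCODE M21 (GRCm38), which gave symbols, exon lengths and 3′ UTRs. The mature miRNA is from RefSeq, and the oligonucleotide sequences are from the study's supplement.

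A gene entered the test when 50% or more of the 11 samples had 5 counts or more (17365 genes). The test was that of edgeR 4.0.16 (R 4.3.3), a two-sided quasi-likelihood test with TMM scaling, robust dispersions and group as the only term, with Benjamini-Hochberg adjustment. The study's tool, DESeq2 (1.42.0), was an alternative, as were RLE and upper-quartile scaling, no filter, at least 10 counts in every sample, each sample left out, the replicate number as a block, and limma 3.58.1 on the log2 of the normalized table plus 1. SE is the absolute log2 fold change over the root of the F value, and 95% intervals are normal. The fit was checked on simulated counts, but the outcome of that check is not reported here. Replicates differed by more than counting noise (chi-square per degree of freedom at least 1.251).

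The 36 genes, the other lists and the tests were chosen with earlier results of these data known. All 36 genes are named. For called genes, predicted targets and the highest gene per length of each subfamily, every mimic sample is given, and the lowest, median and highest of the control samples, and of the other potassium list the called genes are named. Depth was 17287168 to 48091231 counts, and no interval here covers more than sampling and counting error.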

Additional observations from a re-analysis of the deposited data

Results flagged for a closer look

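One value stood apart within its group. Kcnc2 read 25.7 CPM in control replicate 4, with the next control sample at 24.7 and the lowest at 24.1, so the gap to the next sample was 0.653 of the group's range, above Dixon's critical value for 6 samples. The 36 genes, each looked at in both groups, gave 72 such series, in which chance would set apart about 3.6.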

How the results depend on the processing

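For the 36 channel genes, 604 of 647 estimates under the alternative settings kept their direction and their side of the threshold, 20 lost the call, 0 gained one and 23 changed sign, each of these in a gene that was not called. The channel genes called ranged from 4 to 7 when 1 sample was left out, and were 7 under each scaling and filter and in DESeq2, and 6 in limma. The median log2 fold change of all 36 channel genes ran from -0.0743 to -0.0467 when 1 sample was left out, the nearest to 0 being without mimic replicate 3. All genes called were 785 without a filter, 218 (without control replicate 1) to 491 when 1 sample was left out, and 460 under upper-quartile scaling, where 226 were lower and 234 higher against 307 and 188 as reported. Of the other potassium list, 2 to 5 genes were called when 1 sample was left out, 2 without control replicate 1 and without mimic replicate 4, and 6 without a filter. The called genes that carry a seed match went from 0 to 1 (Kcnip2) with any annotated 3′ UTR, and to 1 with a match anywhere in a coding transcript, an alternative chosen after seeing the data. The share of Kcna1 in the Kv1 sum was 40.4% with the longest transcript's length in place of 36.7%.

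Same-numbered samples did not deviate together (correlations of -0.0782 to 0.0694 over 5 pairs, -0.153 to 0.146 over the 25 other pairs). The numbers were therefore not taken as pairs, though 5 pairs are too few to settle it. The replicate block uses numbers 1 to 5 and so drops control replicate 6. In that fit 328 genes, 5 channel genes (without Kcnip2 and Kcnv1) and 2 genes of the other potassium list were called, and the estimate of Kcna3 became -0.00438. The edgeR adjusted p in the block fit was 0.156 for Kcnv1, 0.0548 for Kcnip2, 0.158 for Kcnj3 and 0.055 for Lgi1. The cause of these changes was not tested.

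Estimates near 0 changed sign. Kcnab1 read -0.00439 without a filter and -0.00124 with at least 10 counts in every sample. When 1 sample was left out, the log2 fold changes ran from -0.0217 to 0.0267 for Kcnab1, -0.00805 to 0.0476 for Kcna3, -0.00835 to 0.104 for Kcnf1, -0.255 to 0.00768 for Kcns3, -0.0344 to 0.00123 for Kcnc1, -0.0114 to 0.053 for Kcnc4, -0.00577 to 0.0591 for Kcnip1, -0.0468 to 0.0246 for Kcnip4, -0.0538 to 0.00657 for Kcnh2 and -0.147 to 0.0136 for Kcnh8. Depth limits the low genes most: Kcna5 had as few as 1 count in a sample, and its interval is wider than any change called here.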
